A study of Mus musculus with 21 samples.

Results

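Irf3, Irf5 and Irf7 are 3 of the 750 mouse probes counted in whole tumors with a NanoString PanCancer panel, which tallies barcoded probes hybridised directly to RNA. They were taken by gene name, and each was measured in all 21 libraries. Tumors came from Lewis lung carcinoma cells, a mouse lung cancer line, implanted in the flank of male C57BL/6 mice. The wild-type sham group (n = 9) received intratumoral PBS, the wild-type agonist group (n = 8) received a STING agonist (cGAMP, per the series description) by the same route, and the STING-deficient sham group (n = 4) received PBS in TMEM173 gt/gt hosts. The TMEM173 gt allele (goldenticket) is a point mutation that leaves the host without working STING, while the implanted cancer cells keep their own gene. The labels give no dose, interval or age, and do not say whether libraries came from separate mice, so the p-values measure the spread between these libraries, which may be technical. No STING-deficient tumors given agonist were analysed here. The labels name the tissue as lung although the tumors grew in the flank, and none of the 5 lung epithelium markers listed for checking it were on the panel.

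Interferon regulatory factors are transcription factors that carry signals from nucleic acid sensors to interferon genes. After STING binds cyclic dinucleotides, the kinase TBK1 phosphorylates IRF3, which is present in resting cells, and IRF3 then switches on interferon beta. IRF7 is itself an interferon-induced gene and amplifies interferon alpha production, and plasmacytoid dendritic cells carry high levels of it. IRF5 is found mainly in macrophages, dendritic cells and B cells and drives inflammatory cytokines downstream of Toll-like receptors. Phosphorylation of these proteins, the step that activates them, is not visible in RNA counts.

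The deposited values are probe counts multiplied by 1 factor per library, so they are given here as scaled counts. Totals recovered with the inferred factors ran from 256573 to 763976 counts per library. On this scale most of the panel shifted after agonist: the median log2 difference over the 689 probes tested was 0.98 between agonist and wild-type sham, -0.28 between STING-deficient and wild-type sham, and 1.35 between agonist and STING-deficient sham. Rescaling by TMM (a trimmed mean of log ratios, which assumes that most probes do not change) brought those medians to 0.13, -0.03 and 0.25. Member changes are therefore given on both scales and as ratios between members, which no library factor can alter. Agonist replicates 6, 7 and 8 stood apart, being the 3 libraries deposited with 2 decimals, and member comparisons that use them are given with and without them. The goldenticket allele leaves a transcript, so the Tmem173 probe checks no label: its means were 54.2 ± 11.1 (SD, n = 9) in wild-type sham, 115 ± 74.2 (SD, n = 8) in agonist and 50.4 ± 12.8 (SD, n = 4) in STING-deficient sham tumors. Its agonist difference was 0.85 (limma adjusted p = 0.0156), and 0.25 without agonist replicates 6, 7 and 8 (adjusted p = 0.305). In agonist replicates 6 and 7 the Tmem173 values equalled those of Irf3.

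The 3 genes differed across the groups to unequal degrees, with folds taken from log2(scaled count + 1). Irf7 was the member that differed most: its level in STING-deficient sham tumors was 7.43-fold under that of the wild-type sham group with no overlap, and 3.14-fold higher after agonist in wild-type hosts. Irf5 was 2.06-fold higher after agonist, and its difference between the sham groups did not pass the test. Irf3 passed neither test on the deposited scale, and its agonist difference changed sign with the scaling.

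Irf7, the interferon-inducible amplifier of the family, lies at chr7:141263183-141266499 in GRCm38.p6. In wild-type sham tumors it ran from 126 to 418 scaled counts, with a median of 181 and a mean of 227 ± 102 (SD, n = 9). In the STING-deficient sham tumors it was 48.8, 12.2, 26.8 and 34.0 scaled counts in replicates 1 to 4, a mean of 30.5 ± 15.2 (SD, n = 4). Every STING-deficient library lay below every wild-type library, and the highest of them was under the lowest wild-type sham value of 126. After agonist it ran from 195 to 2204 scaled counts, with a median of 638 and a mean of 907 ± 738 (SD, n = 8). Agonist replicates 1, 3, 6, 7 and 8 lay above the highest sham value, replicate 2 at 409 just under it, and replicates 4 and 5 at 239 and 195 well within the sham range. The 8 agonist libraries spanned 11.3-fold between lowest and highest, against 3.31-fold in wild-type sham and 4.01-fold in STING-deficient sham tumors.

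Dividing each scaled value by the step inferred for its library, which could not be settled from the low values in every library, gave Irf7 counts of 57, 18, 34 and 41 in the STING-deficient group. If the inferred steps are right, the lowest of these, 18 counts in replicate 2, carries a 95% exact Poisson interval of 10.7 to 28.4 counts, which covers counting error only. That interval corresponds to 7.22 to 19.2 scaled counts, below the lowest wild-type sham library. The gene's place within each library, which no scaling changes, moved the same way: 31.2% to 46.4% of the panel's probes read lower than Irf7 in the STING-deficient libraries, 63.2% to 83.9% in wild-type sham and 69.7% to 92.9% in agonist libraries.

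**Figure D1:**
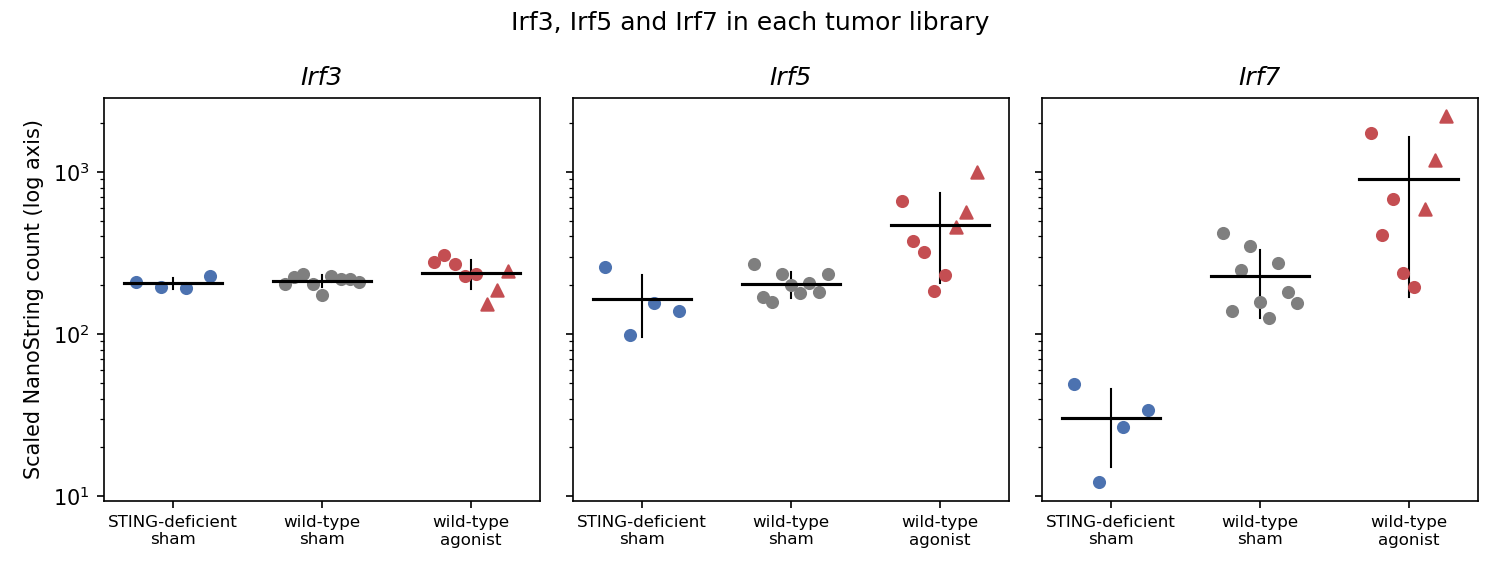
Scaled counts of Irf3, Irf5 and Irf7 in each of the 21 libraries (log axis), by group, with bars at the group mean and lines for the SD; triangles mark agonist replicates 6, 7 and 8. The 4 STING-deficient points for Irf7 (12.2 to 48.8) lie below all wild-type points, the agonist points for Irf5 and Irf7 spread widely, and the Irf3 groups overlap.

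Irf5, the myeloid and B cell factor, lies at chr6:29526130-29541869. Wild-type sham tumors ran from 158 to 272 scaled counts, with a median of 199.9 and a mean of 203 ± 36.9 (SD, n = 9). The STING-deficient tumors read 259, 98.8, 156 and 139 scaled counts, a mean of 163 ± 68.0 (SD, n = 4). Replicate 1 lay near the top of the wild-type sham range and the other STING-deficient libraries under its bottom, so these groups overlapped. Agonist tumors ran from 185 to 1001 scaled counts, with a median of 414 and a mean of 474 ± 266 (SD, n = 8). Agonist replicates 1, 2, 3, 6, 7 and 8 exceeded the highest sham value, while replicates 4 and 5 did not.

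Irf3, the factor that STING signals through directly, lies at chr7:44997648-45002848 and varied least of the members on the deposited scale. Wild-type sham tumors ran from 175.0 to 234 scaled counts, with a median of 218 and a mean of 213 ± 17.6 (SD, n = 9), a coefficient of variation of 8.27% against 45.0% for Irf7 in the same libraries. STING-deficient tumors read 208, 196, 193 and 228 scaled counts, a mean of 206 ± 16.0 (SD, n = 4), all inside the wild-type sham range. Agonist tumors ran from 154 to 305 scaled counts, with a median of 240 and a mean of 238 ± 49.3 (SD, n = 8). Agonist replicates 1, 2, 3 and 8 were above the highest sham library and replicate 6 was below the lowest. Within the agonist libraries the order depended on the scale: the share of probes reading lower than Irf3 ran from 49.8% to 74.7%, a wider span than the 69.5% to 81.3% of Irf5, and TMM-scaled Irf3 ran from 88.0 to 317 against 232 to 428 for Irf5.

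The promoters of Irf7 and Irf3 are shown because they belong to the members that differed most and, on the deposited scale, least between the sham groups, and that of Isg15, an interferon-induced ubiquitin-like protein, because its probe followed Irf7 most closely. Each window holds 250 bases before and 50 after a transcription start from RefSeq (GRCm38.p6), which for Irf7 and Irf5 lies inside the gene span given above, 5′ to 3′ on the gene's strand, at chr7:141266375-141266674 (minus) for Irf7, chr7:44997398-44997697 (plus) for Irf3 and chr4:156200769-156201068 (minus) for Isg15. Capitals mark the core of an interferon-stimulated response element, searched as GAAANNGAAA on both strands with overlapping matches kept.
Irf7: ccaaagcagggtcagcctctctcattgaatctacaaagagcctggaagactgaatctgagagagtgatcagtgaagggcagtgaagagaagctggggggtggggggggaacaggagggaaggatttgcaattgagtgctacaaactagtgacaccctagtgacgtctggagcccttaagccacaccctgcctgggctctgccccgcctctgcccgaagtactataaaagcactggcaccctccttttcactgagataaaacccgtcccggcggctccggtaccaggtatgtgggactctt
Irf3: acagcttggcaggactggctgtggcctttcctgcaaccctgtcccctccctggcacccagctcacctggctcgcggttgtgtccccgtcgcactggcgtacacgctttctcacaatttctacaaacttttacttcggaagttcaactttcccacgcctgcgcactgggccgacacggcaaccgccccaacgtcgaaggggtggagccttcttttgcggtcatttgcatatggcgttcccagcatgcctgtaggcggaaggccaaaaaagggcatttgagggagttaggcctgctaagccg
Isg15: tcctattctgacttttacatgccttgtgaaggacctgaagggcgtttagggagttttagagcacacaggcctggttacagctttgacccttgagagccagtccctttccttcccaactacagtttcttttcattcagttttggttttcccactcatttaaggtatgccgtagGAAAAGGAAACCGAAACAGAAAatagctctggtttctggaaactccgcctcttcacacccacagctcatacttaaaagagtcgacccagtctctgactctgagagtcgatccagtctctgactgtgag
The Isg15 window held 3 overlapping matches, the farthest starting 78 bases before the start site, while the windows of Irf7, Irf3 and Irf5 held 0. Over all 32851 promoter windows of the reference 3.44% held a match, against 8 of the 21 windows (38.1%) of the interferon-induced target genes described further on. A match is a string of letters and not a measured binding site, and its absence says only that these letters are not in this window.

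In the comparison of agonist with sham in wild-type hosts, which asks what STING activation does to the tumor's RNA, Irf5 and Irf7 rose on the deposited scale. Irf7 differed by 1.65 ± 0.43 on the log2 scale (SE, limma adjusted p = 0.00443), with 7 of 8 agonist libraries above the sham mean. Irf5 differed by 1.04 ± 0.27 (SE, limma adjusted p = 0.00438), also with 7 of 8 above. Irf3 differed by 0.14 ± 0.14 (SE, limma adjusted p = 0.383), with a 95% interval from -0.15 to 0.42. That 2 of 3 members rose has to be read against 71.1% of all 689 probes called higher and 0.726% called lower in the same fit. In a whole tumor, more cells of a type and more RNA per cell cannot be told apart.

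Against the panel's own shift the picture was narrower. With TMM scaling Irf7 differed by 0.78 (limma adjusted p = 0.0643) and Irf5 by 0.18 (adjusted p = 0.410), neither past the threshold, while Irf3 fell by 0.73 (adjusted p = 0.0239). Under that scaling 10.2% of probes were called higher and 16.5% lower. Without agonist replicates 6, 7 and 8 the deposited scale gave 1.16 for Irf7 (limma adjusted p = 0.0658), 0.67 for Irf5 (adjusted p = 0.0656) and 0.30 for Irf3 (adjusted p = 0.0665). In that smaller fit of 5 agonist libraries 0.435% of probes were called higher.

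**Figure D2:**
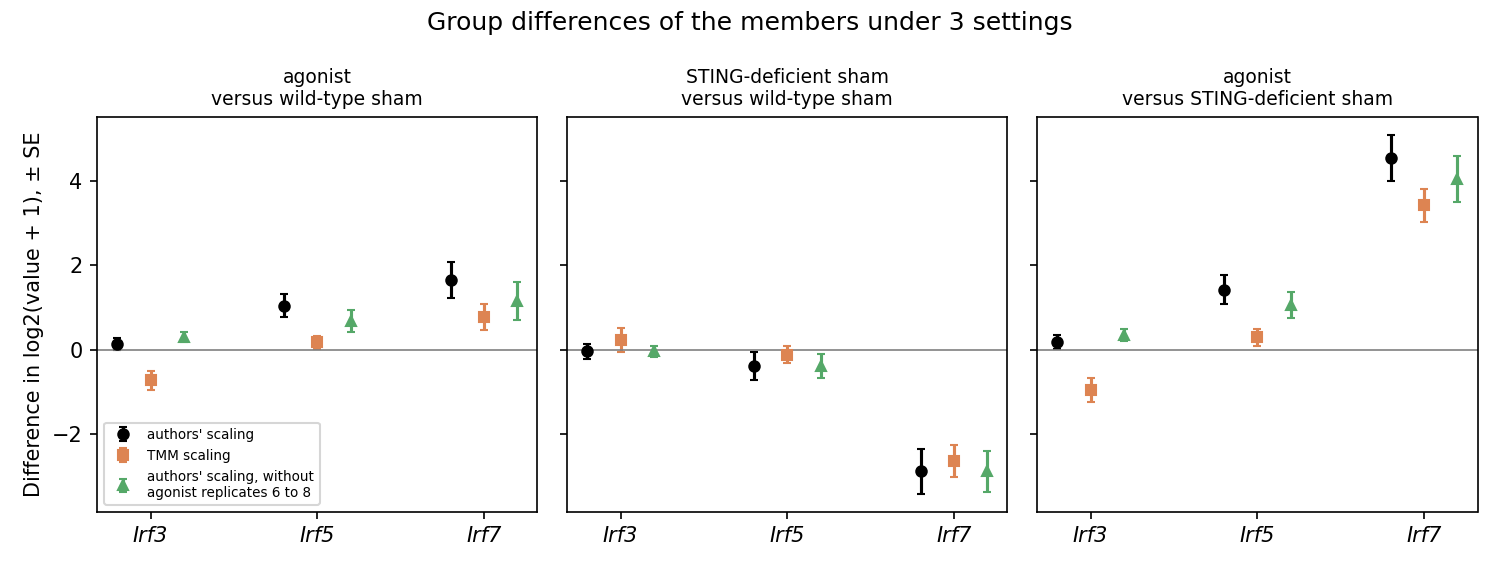
Fitted log2 differences of Irf3, Irf5 and Irf7 in the 3 comparisons. Settings are the deposited scale, TMM scaling, and the deposited scale without agonist replicates 6, 7 and 8. Points are limma estimates and lines their SE. Irf7 lies far below 0 between the sham groups under every setting plotted, at -2.89 on the deposited scale and -2.65 with TMM, while the agonist differences of Irf3 move across 0.

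The ratios between members within a library showed that they did not move in parallel after agonist. The ratio of Irf7 to Irf3 had a mean of 1.08 ± 0.508 (SD, n = 9) in wild-type sham tumors and 3.89 ± 3.0 (SD, n = 8) in agonist tumors. Agonist replicates 1, 3, 6, 7 and 8 gave 6.31, 2.51, 3.85, 6.31 and 8.94, above the highest sham ratio of 2.05, and replicates 2, 4 and 5 gave 1.34, 1.05 and 0.836 within the sham range. The difference was 2.86-fold (log2 1.51 ± 0.51 SE, exact two-sided permutation p = 0.00987, adjusted p = 0.0178 over the 9 ratio tests). The ratio of Irf5 to Irf3 was 1.88-fold higher (log2 0.91 ± 0.33 SE, exact permutation p = 0.0146, adjusted 0.0220). The ratio of Irf7 to Irf5 was 1.52-fold higher (log2 0.61 ± 0.27 SE, exact permutation p = 0.0394, adjusted 0.0443), and this call was lost without any of 13 of the 21 libraries, with an adjusted p of up to 0.0897. Those 13 were wild-type sham replicates 2, 5, 6, 8 and 9, agonist replicates 1, 3, 6, 7 and 8, and, through the shared adjustment, STING-deficient replicates 2, 3 and 4. Without agonist replicates 6, 7 and 8 together, none of these 3 ratios passed the exact permutation test: the log2 differences were 0.86, 0.37 and 0.49 in the order given, with adjusted p = 0.190, 0.200 and 0.200.

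Between the sham groups, which asks what the host's STING contributes to a tumor given PBS, Irf7 fell and the other members did not pass the test. Irf7 was lower by a log2 difference of -2.89 ± 0.54 (SE, limma adjusted p = 0.00247), with a 95% interval from -4.01 to -1.78, and ranked 6 from the lowest of 689 probes. In this comparison 2.76% of probes were called lower and 0.0% higher, and 5.66% lay below every wild-type sham library without overlap, as Irf7 did. Irf5 differed by -0.38 ± 0.34 (SE, limma adjusted p = 0.749), with an interval from -1.08 to 0.32, which leaves room for differences of up to about that size in either direction. Irf3 differed by -0.04 ± 0.17 (SE, limma adjusted p = 0.953), with an interval from -0.40 to 0.31. These SEs carry the spread of the agonist libraries, because the fit pooled the spread over all groups. In a fit of the sham groups alone the SEs were 0.21 for Irf5 and 0.10 for Irf3. Neither passed there (limma adjusted p = 0.242 and 0.821), although more probes were called lower than in the main fit. Not passing in this comparison therefore does not show that a probe is unchanged.

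The fall of Irf7 depended little on scaling. TMM gave -2.65 (6.27-fold lower, limma adjusted p = 6.52e-05, with 2.76% of probes called lower there too), and leaving out any 1 library kept the difference between -3.17 and -2.53 with adjusted p of at most 0.0328. Relative to Irf3 it was 7.21-fold lower (log2 -2.85 ± 0.44 SE), with ratios of 0.235, 0.0621, 0.139 and 0.149 in the STING-deficient libraries against 0.557 to 2.05 in wild-type sham. Relative to Irf5 it was 5.70-fold lower (log2 -2.51 ± 0.25 SE), with group means of 0.182 ± 0.0498 (SD, n = 4) and 1.10 ± 0.378 (SD, n = 9). For both ratios the groups did not overlap, and the exact permutation p of 0.0028 was the smallest that 4 against 9 libraries can give (adjusted p = 0.00909). The ratio of Irf5 to Irf3 did not pass (log2 -0.34 ± 0.30 SE, exact permutation p = 0.201), although without STING-deficient replicate 1, the library with the highest Irf5 of its group, its adjusted p was 0.0394.

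**Figure D3:**
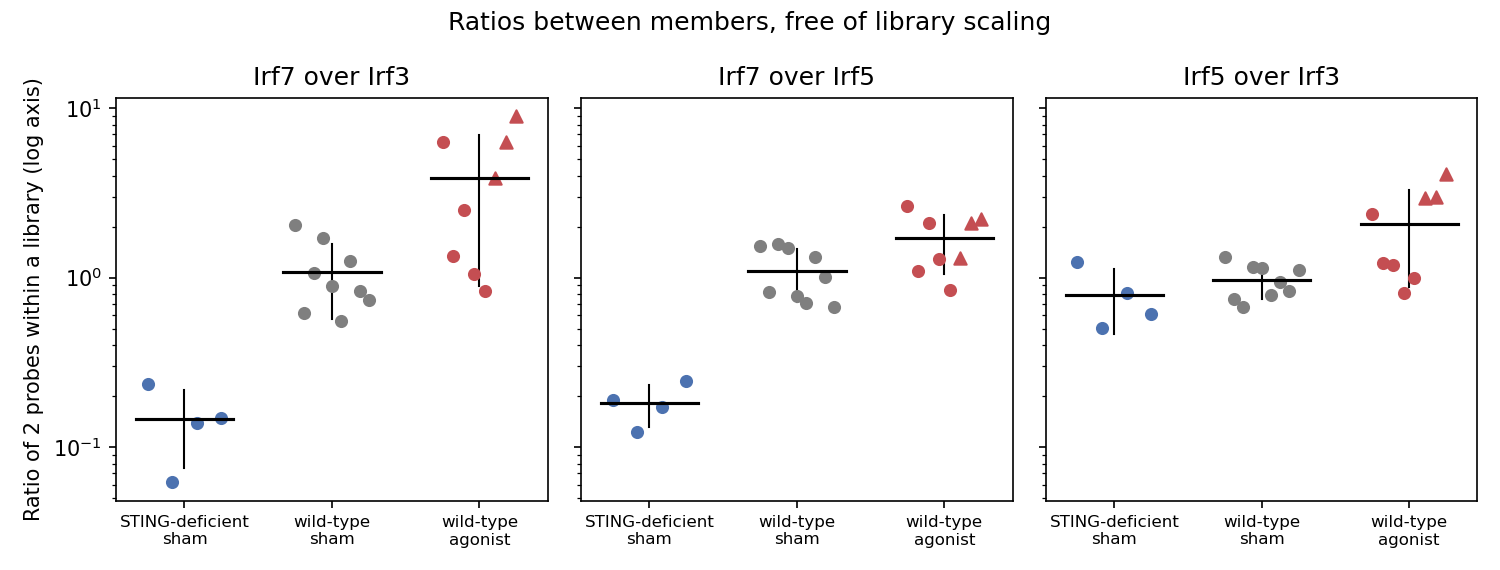
Ratios of Irf7 to Irf3, Irf7 to Irf5 and Irf5 to Irf3 within each of the 21 libraries (log axis), by group, with bars at the group mean and lines for the SD; triangles mark agonist replicates 6, 7 and 8. Both ratios with Irf7 on top are lower in all 4 STING-deficient libraries than in any other library, and the Irf5 to Irf3 ratios of the sham groups overlap.

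The agonist tumors of wild-type hosts and the sham tumors of STING-deficient hosts differ in both genotype and injection, and the contributions of these to the comparison cannot be told apart. Irf7 was 23.3-fold higher in the agonist tumors (log2 4.54 ± 0.55 SE, limma adjusted p = 4.07e-06) with no overlap, rank 5 of 689 from the highest. Irf5 was 2.69-fold higher (log2 1.43 ± 0.34 SE, limma adjusted p = 0.00186) with overlap, and Irf3 differed by 0.18 ± 0.18 (SE, limma adjusted p = 0.356). Here 73.6% of probes were called higher and 16.5% were higher without overlap. With TMM scaling Irf7 remained 10.8-fold higher (limma adjusted p = 1.38e-06), against 19.3% of probes called higher, Irf5 at 0.29 did not pass (adjusted p = 0.231) and Irf3 fell by 0.95 (adjusted p = 0.0121), where 19.4% of probes were called lower. The ratio of Irf7 to Irf3 was 20.6-fold higher and that of Irf7 to Irf5 8.68-fold higher, both without overlap and at the smallest exact permutation p for 8 against 4 libraries, 0.00404 (adjusted p = 0.00909). Without agonist replicates 6, 7 and 8 these log2 ratio differences were 3.71 and 3.0 (exact permutation adjusted p = 0.0357 for each). The ratio of Irf5 to Irf3 was 2.37-fold higher (exact permutation p = 0.0323, adjusted 0.0416), a call lost without any of agonist replicates 1, 6, 7 and 8 or STING-deficient replicates 2, 3 and 4, with an adjusted p of up to 0.109. Without agonist replicates 6, 7 and 8 together, Irf7 differed by 4.06 (limma adjusted p = 5.89e-05), Irf5 by 1.06 (adjusted p = 0.0131) and Irf3 by 0.34 (adjusted p = 0.0475), with 53.8% of probes called higher.

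The panel held 4 other factors of the family. Irf1, an interferon gamma-induced activator, Irf2, its antagonist, Irf4, a lymphocyte factor, and Irf8, a myeloid lineage factor, all rose after agonist on the deposited scale (4 of 4 called, median log2 difference 1.30, against 71.1% called and a median of 0.98 over all probes). Irf1 went from a mean of 349 to 867 scaled counts (log2 1.25 ± 0.25 SE, limma adjusted p = 0.00276) and Irf8 from 88.9 to 256 (log2 1.35 ± 0.30 SE, limma adjusted p = 0.00276). With TMM scaling 1 of 4 was called, Irf4 at 0.73 (limma adjusted p = 0.0285), and Irf2 changed sign from 0.67 to -0.19 (adjusted p = 0.352). Without agonist replicates 6, 7 and 8, 0 of 4 passed. Between the sham groups 0 of 4 passed, with differences from -0.34 to -0.15 and limma adjusted p from 0.620 to 0.926.

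Upstream of the factors, the 12 sensors and adaptors on the panel were called higher after agonist on the deposited scale (12 of 12, against 71.1% of all probes), by a median log2 difference of 0.89 that did not exceed the panel's 0.98. With TMM scaling 1 of 12 was called higher, against 10.2% of all probes, and 0 of 12 without agonist replicates 6, 7 and 8. Ifih1, the gene of the RNA sensor MDA5, was the 1 member called lower in STING-deficient tumors, from a mean of 136 to 46.8 scaled counts (log2 -1.59 ± 0.40 SE, limma adjusted p = 0.0282). Ddx58, the gene of the RNA sensor RIG-I, had means of 322 and 146 scaled counts in the same groups and missed the threshold (limma adjusted p = 0.0607). Ifih1 was also the sensor called higher after agonist with TMM scaling (log2 0.58, limma adjusted p = 0.0426).

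Among the kinases and TRAF proteins that link sensors to the factors, 9 of 12 were called higher after agonist on the deposited scale, near the 71.1% of all probes, with a median log2 difference of 0.46 against the panel's 0.98. With TMM 1 was called higher and 5 lower, against 10.2% and 16.5% of all probes, and 0 without agonist replicates 6, 7 and 8. Irak3, an inhibitory member of the IRAK family in Toll-like receptor signaling, was the 1 that held with TMM (log2 0.87, limma adjusted p = 0.0176), at 1.73 ± 0.41 (SE, limma adjusted p = 0.00295) on the deposited scale. Tbk1, the kinase of IRF3, was named after its values were seen: it differed by 0.56 ± 0.19 (SE, limma adjusted p = 0.0125) after agonist and by -0.30 with TMM (adjusted p = 0.141). Between the sham groups 0 of the 12 passed, and Tbk1 differed by 0.11 (limma adjusted p = 0.914).

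The interferon genes that the factors act on were read at low counts. Of 4 tested, 3 were called higher after agonist on the deposited scale, where 71.1% of all probes were. Their median log2 difference was 1.09 against the panel's 0.98. With TMM 0 were called higher, against 10.2% of all probes. Without agonist replicates 6, 7 and 8 the count was also 0, against 0.435%. Ifna1 went from a mean of 51.3 to 211 scaled counts (log2 1.21, limma adjusted p = 0.0394), and Ifnb1, the gene of interferon beta, from 11.3 to 50.7 (log2 1.11, limma adjusted p = 0.0695). Agonist libraries ranged widely, from 20.3 to 633 scaled counts for Ifna1 (median 91.4) and from 4.56 to 239 for Ifnb1 (median 25.6). In STING-deficient tumors their means were 23.8 and 4.32 scaled counts, and neither passed (limma adjusted p = 0.630 for each). For both genes every STING-deficient library nevertheless lay below every wild-type sham library on the deposited scale, as for 5.66% of all probes. The highest STING-deficient values were 30.8 and 5.14, and the lowest wild-type sham values 35.2 and 5.85. Ifna4 and Ifnl2, the other genes tested, overlapped between the sham groups. Interferon alpha genes are near-identical copies, so the Ifna1 probe may read several of them.

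Downstream, the 6 genes of the interferon receptor and its transducers were all called higher after agonist on the deposited scale, where 71.1% of all probes were, with a median log2 difference of 0.92 against the panel's 0.98. With TMM 0 were called higher and 1 lower, and without agonist replicates 6, 7 and 8 the count was 0 in both directions. In STING-deficient tumors 1 of 6 was called lower, Stat2, a subunit of the interferon-activated complex that acts on interferon-induced genes, with means of 175 and 81.7 scaled counts (log2 -1.08 ± 0.29 SE, limma adjusted p = 0.0456, and 0.0517 with TMM).

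Interferon-induced target genes, the outermost layer of the pathway, were the list with the most calls between the sham groups. Of 24 tested, 15 were called lower in STING-deficient tumors and 0 higher, with a median log2 difference of -1.90 against -0.28 over all probes. With TMM 16 were called lower. Of all probes 2.76% were called lower on either scale. Irf7 itself, at -2.89, is not counted in this list. Ifit1, an antiviral protein that binds viral RNA, went from 184 to 19.96 scaled counts (log2 -3.29 ± 0.38 SE, limma adjusted p = 1.12e-05), and Isg15 from 275 to 37.6 (log2 -2.93 ± 0.47 SE, limma adjusted p = 0.000468). Ccl5, a T cell chemokine, was an exception chosen after its values were seen, with means of 465 and 483 scaled counts (limma adjusted p = 0.935). After agonist 21 of the 24 were called higher on the deposited scale, where 71.1% of all probes were, with a median of 1.31 against the panel's 0.98. With TMM 2 of the 24 were called higher, against 10.2% of all probes, and 0 without agonist replicates 6, 7 and 8. The 2 that held with TMM were Oas2 (log2 0.85, limma adjusted p = 0.0285) and Oasl1 (log2 1.07, limma adjusted p = 0.0239), both of the oligoadenylate synthetase family.

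**Figure D4:**
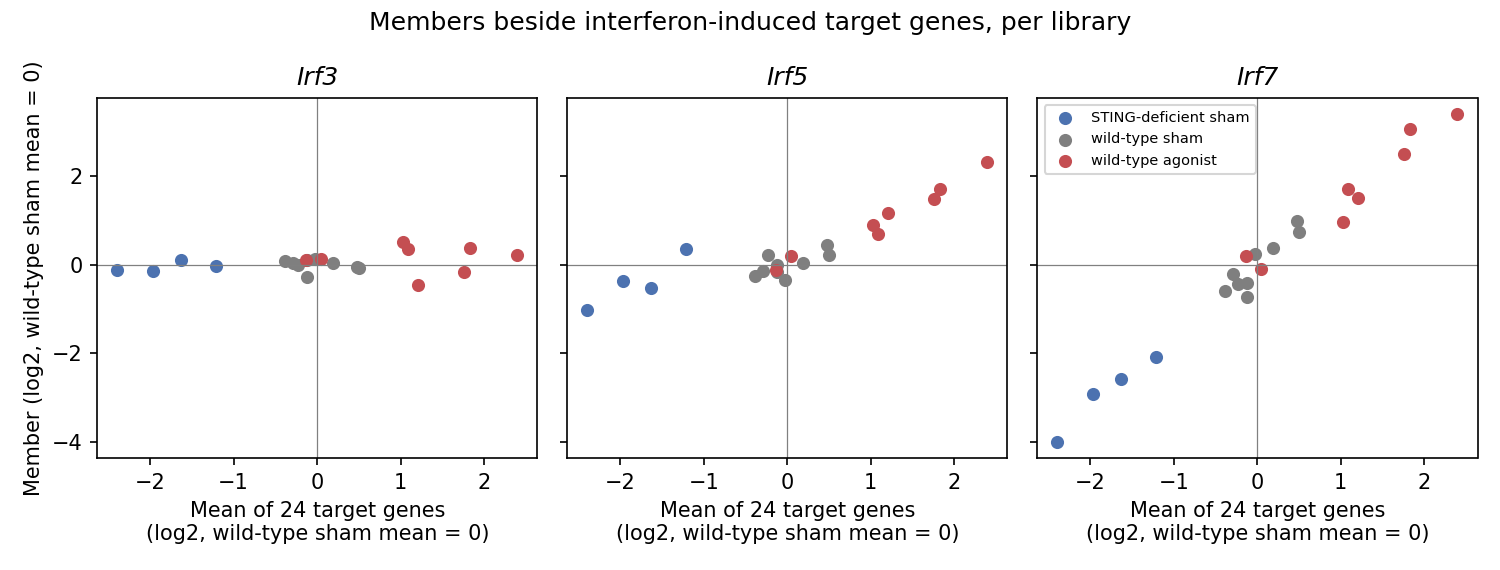
Log2 levels of Irf3, Irf5 and Irf7 (y axes, a panel each) against the mean log2 level of 24 interferon-induced target genes (x axes). Each is relative to the wild-type sham mean, for 21 libraries coloured by group. In the Irf7 panel the STING-deficient libraries lie at the lower left (Irf7 from -4.00 to -2.08). Agonist replicates 4 and 5 lie there among the wild-type sham libraries, and the other agonist libraries at the upper right.

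Library by library, Irf7 can be set beside the mean of the target genes. Agonist replicates 4 and 5 had a mean target level of -0.14 and 0.05 on the log2 scale relative to wild-type sham, inside the sham range of -0.38 to 0.50, and Irf7 levels of 0.19 and -0.10. The other 6 agonist libraries had target levels from 1.02 to 2.40 and Irf7 levels from 0.96 to 3.39. The panel median moved as well in those libraries, by 0.53 to 1.67: in replicate 2 it stood at 1.13, above the targets at 1.02 and Irf7 at 0.96, and in replicate 6 at 1.17, beside 1.21 for the targets and 1.499 for Irf7. STING-deficient replicate 2 was lowest in both, at -2.40 for the targets and -4.00 for Irf7, and replicate 1 was the highest of its group in both, at -1.21 and -2.08.

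Over the 21 libraries, which share their scaling factors and group differences, the probes most like Irf7 by Pearson r of log2 scaled counts were Isg15 (0.987), Oas2 (0.983), Ifit3 (0.979), Ifit2 (0.979) and Ifih1 (0.979). After each library was centred on its panel median, 4 of these 5 stayed in the list and Ifi44 (0.955) replaced Ifit2. The probes most like Irf5 were Ccr4 (0.978), Ptprc (0.973), H2-K1 (0.972), Ctsw (0.971) and Irf8 (0.970), against a median of 0.776 over all probes, and after centring Irf8 led at 0.811. Among the probes most like Irf3 were Map2k2 (0.656), Tmed1 (0.621), Cd47 (0.607) and Tollip (0.593), and after centring Map2k2 led at 0.974. Among the members themselves, r was 0.865 for Irf7 with Irf5, 0.285 for Irf7 with Irf3 and 0.210 for Irf5 with Irf3, and 0.470, -0.651 and -0.482 after centring. These values describe the libraries and were not tested.

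Markers of cells that could carry the factors moved with the agonist comparison. Of 52 markers tested from 10 cell type lists, 43 were called higher after agonist on the deposited scale, where 71.1% of all probes were. With TMM 8 were called higher and 2 lower, against 10.2% and 16.5% of all probes, and without agonist replicates 6, 7 and 8 limma called 0, with 26 at an unadjusted p under 0.05. For macrophages, a source of IRF5, 5 of 8 markers were called higher on the deposited scale, and 0 higher and 2 lower with TMM. Their summed level ran from 4322 to 5418 scaled counts in wild-type sham, from 4190 to 15220 in agonist and from 4106 to 5257 in STING-deficient sham libraries. After TMM scaling the sums ran from 5714 to 6608, 3483 to 6511 and 6969 to 7907 in the same order. For B cells 4 of 5 tested were called higher, and 1 with TMM. Summed levels on the deposited scale were 118 to 200 in wild-type sham, 140.4 to 755 in agonist and 123 to 156 in STING-deficient sham libraries. For plasmacytoid dendritic cells 2 of 7 listed markers were on the panel, Ccr9 and Il3ra, with summed levels of 105 to 152, 85.2 to 3106 and 72.6 to 111 scaled counts in the same order. The agonist sums had a median of 274, and Ccr9 in agonist libraries had a median of 92.3 and a highest value of 3018. No marker in these lists was at 0. The part of cell composition in the agonist differences of Irf5 and Irf7 was not tested. Between the sham groups, where Irf7 fell, 0 of the 52 markers were called in either direction by limma, with 4 at an unadjusted p under 0.05, and 0 with TMM, with 5. Over all probes 2.76% were called lower and 9.29% had an unadjusted p under 0.05, so these counts do not set the markers apart from the panel. The markers' median log2 difference was -0.40 against the panel's -0.28. The neutrophil list had a median of -0.97 and the endothelial list -0.59, and of the plasmacytoid markers Ccr9 differed by -1.41 (limma adjusted p = 0.620) and Il3ra by 0.0074. The part of cell composition in the Irf7 difference between the sham groups was not tested.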

How the data were processed

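RNA extracted with TRIzol from whole tumors was counted in 21 libraries on a 750-probe panel. The values deposited by the authors are signal: probe counts multiplied by 1 factor per library, since at least 99.6% of values in every library were whole multiples (within 0.1 of a step) of 1 step, between 0.65 and 1.41. The source of the factors is not given in the sources used here. Values per library and in the series table differed by at most 0.05, and 2 cells (Hif1a) were blank.

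Probes at 20 or more in at least 4 libraries (689) were tested on log2(value + 1) with limma 3.58.1 (R 4.3.3, trend and robust) over all 3 groups, with Benjamini-Hochberg adjustment over the 689 probes and a threshold of 0.05. Fold changes on this scale understate the change of low probes. Ratios of members used exact two-sided permutation tests of the log2 ratio (scipy 1.17.1), adjusted over 9 tests. TMM factors came from a script of this work. Alternatives covered scaling, pseudocount, filter, fit, replicate block and left-out libraries. The limma step was tested on simulated counts with the wild-type sham spread in every group, rises and falls equally likely, and no panel-wide shift. That simulation therefore does not cover the wider spread and the shift of the agonist libraries. Genes were named as the 3 members, Tmem173, the 5 most correlated probes of each member on each scale, and up to 3 genes per list and comparison with the smallest adjusted p; 1 of the probes so named is not reported here. The members and gene lists were chosen with earlier results of these data known. Symbols and GRCm38.p6 coordinates came from RefSeq, in which 727 of the 750 probe accessions matched.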

Additional observations from a re-analysis of the deposited data

Results flagged for a closer look

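Irf3 in wild-type sham replicate 5, at 175.0 scaled counts, lay apart from the other 8 libraries of its group: its gap to the next library was 0.511 of the group's log2 range, above Dixon's critical value of 0.493. Chance gives such a gap in about 1 in 20 groups, and 18 groups of members and ratios were examined. Leaving this library out changed none of the Irf3 calls.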

How the results depend on the processing

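The differences of Irf7 between STING-deficient and wild-type sham, and between agonist and STING-deficient sham, kept direction and call under every limma alternative run. Irf3 changed sign with scaling: against wild-type sham the agonist difference was -0.73 (TMM), -0.77 (centred libraries), -0.57 (recovered counts as a share of the panel total), -0.18 (no scaling) and -0.28 (TMM without agonist replicates 6, 7 and 8). In the same order it was 0.22, 0.36, 0.039, 0.14 and 0.22 between the sham groups, and -0.95, -1.13, -0.61, -0.32 and -0.50 between agonist and STING-deficient sham. It passed at 0.34 in the last comparison without agonist replicates 6, 7 and 8. Irf5 between the sham groups was 0.022 with centring. The agonist call of Irf5 was lost at 0.18 (TMM), 0.14 (centred), 0.34 (share of the total), 0.67 (without agonist replicates 6, 7 and 8) and 0.094 (both), and that of Irf7 at 0.78 (TMM), 0.75 (centred), 1.16 and 0.58. Irf5 against STING-deficient sham was lost at 0.29 (TMM), 0.12 (centred) and 0.21 (TMM without the 3 libraries). Centring, TMM and scaling to the panel total remove the panel-wide shift by construction. For the other losses the cause was not tested. Probes called higher after agonist numbered 490, against 70 with TMM, 62 centred, 123 as shares of the total, 270 with no scaling and 3 without agonist replicates 6, 7 and 8. Called lower, they numbered 5, against 114, 128, 70, 24 and 0. Against STING-deficient sham 507 were called higher, and 133, 86, 237 and 265 under the same scalings. Between the sham groups 19 were called lower, against 11 with no scaling, a pseudocount of 10 or the replicate block, 80 in a fit of those groups alone, and 8 to 22 with 1 library left out.

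Without agonist replicates 6, 7 and 8, log2 ratios lost their call after agonist at 0.86 (Irf7 to Irf3), 0.49 (Irf7 to Irf5) and 0.37 (Irf5 to Irf3), and Irf5 to Irf3 at 0.71 against STING-deficient sham.

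Same-numbered libraries did not all deviate together: correlations of their deviations ran from -0.202 to 0.288 between agonist and wild-type sham (8 pairs), from -0.16 to 0.609 between the sham groups (4 pairs, with 0.609 for replicate 1 and 0.303 for replicate 2) and from -0.082 to 0.189 between agonist and STING-deficient sham (4 pairs). A library correlated best with its own number in 1 pair of each, so the numbers were not taken as pairing. As a replicate block in limma they changed no member call: Irf7 was 1.60, -3.01 and 4.60, Irf5 1.07 after agonist and 1.32 against STING-deficient sham, and Irf3 0.13, -0.16 and 0.29. Permuted within the replicate block, log2 ratios after agonist were 1.46, 0.53 and 0.94 (adjusted p = 0.0938, exact permutation). With 4 pairs, where the smallest exact permutation p is 0.125, they were -3.17 and -2.84 between the sham groups and 3.99, 3.20 and 0.79 between agonist and STING-deficient sham, so no call could be made.

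Leaving out 1 library at a time gave, for Irf3, Irf5 and Irf7, 0.08 to 0.22, 0.86 to 1.21 and 1.40 to 1.90 after agonist, -0.09 to -0.01, -0.63 to -0.17 and -3.17 to -2.53 between the sham groups, and 0.12 to 0.26, 1.22 to 1.68 and 4.18 to 4.82 between agonist and STING-deficient sham. The ratios Irf7 to Irf3, Irf7 to Irf5 and Irf5 to Irf3 gave 1.28 to 1.76, 0.50 to 0.74 and 0.74 to 1.07, then -3.12 to -2.51, -2.66 to -2.35 and -0.58 to -0.15, then 4.02 to 4.63, 2.96 to 3.27 and 1.06 to 1.49. The planned count-model tests on recovered counts were not run, because the size of 1 count could not be settled from the low values in every library.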
